A study of Mus musculus with 2 samples.

Results

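Lamins and the proteins that tie the nuclear envelope to chromatin and to the cytoskeleton are described here in the mouse heart, through 10 genes chosen by name. They are the lamins Lmna, Lmnb1 and Lmnb2, the linker genes Syne1, Syne2, Sun1 and Sun2, and the inner membrane genes Emd, Tmpo and Lbr. They make up 10 of 55536 mouse genes in the deposited tables, and 96 of 141767 transcripts. Total RNA of whole hearts was sequenced from 2 female mice of the strain B6CASTF1/J, aged 36 days. These mice are hybrids from a cross of C57BL/6J with CAST/EiJ, so they carry a genome of each strain. The labels number them as animal 3 (replicate 1) and animal 4 (replicate 2) and call them biological replicates, although both carry the same donor identifier. No genetic change or treatment is given, and 300 ng of RNA with added ERCC spike-in RNAs went into each library. The mice form 1 group, so the data give levels and the difference between 2 libraries, and no contrast between conditions. The libraries held 38845613 and 38168674 expected counts on mouse genes.

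The nuclear lamina is a meshwork of intermediate filament proteins, the lamins, under the inner nuclear membrane. SUN proteins cross the inner membrane, nesprins cross the outer membrane, and they bind each other in the space between the membranes to form the LINC complex, which couples the lamina to actin, microtubules and, in muscle, the sarcomere. Emerin and the LAP2 proteins share the LEM domain, which binds the chromatin protein BAF, and LBR binds B-type lamins and heterochromatin. Inherited changes in A-type lamins, emerin and nesprins are known causes of muscular dystrophy and cardiomyopathy.

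Several of these genes make proteins of different function from 1 locus, and the transcripts differ at a few places in the coding sequence. The stretches below, from the annotated transcripts of mm10 and all on the minus strand, are those on which the shares of the forms turn. Lamin A and lamin C part at the end of a shared exon. The lower-case bases are shared, and the capitals mark the bases after the last shared one. Lamin A (Lmna-201) joins chr3:88483318-88483347 to chr3:88482583-88482612. Lamin C (Lmna-203) reads on through chr3:88483297-88483347 to its own stop codon.
Lmna-201: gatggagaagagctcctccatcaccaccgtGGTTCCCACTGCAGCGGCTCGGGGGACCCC
Lmna-203: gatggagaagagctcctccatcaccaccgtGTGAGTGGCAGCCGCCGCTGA
The end of the lamin A coding sequence, at chr3:88482346-88482348 and chr3:88482074-88482100, encodes the signal for farnesylation that lamin C lacks. The capitals mark the last 4 codons and the stop codon.
Lmna-201: cagagctcccagaacTGCAGCATCATGTAA

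Tmpo, the gene of the LAP2 proteins, also splits in its coding sequence. After chr10:91164043-91164072, LAP2 alpha (Tmpo-201) goes on at chr10:91163332-91163361 into an exon without a membrane span. Tmpo-202 goes on at chr10:91158816-91158845 into the exons of the membrane-bound forms. The capitals mark the bases after the last shared one.
Tmpo-201: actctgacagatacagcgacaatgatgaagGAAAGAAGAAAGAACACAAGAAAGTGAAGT
Tmpo-202: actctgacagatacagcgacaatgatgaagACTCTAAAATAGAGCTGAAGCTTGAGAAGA

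In Syne1, the gene of nesprin-1, the short transcript Syne1-202 starts its coding sequence in 92 bases of its own at chr10:5068807-5068898. It then joins chr10:5061522-5061551, which it shares with the giant transcript Syne1-205. The giant transcript enters the same exon from chr10:5072037-5072066. The capitals mark the bases before the first shared one.
Syne1-202: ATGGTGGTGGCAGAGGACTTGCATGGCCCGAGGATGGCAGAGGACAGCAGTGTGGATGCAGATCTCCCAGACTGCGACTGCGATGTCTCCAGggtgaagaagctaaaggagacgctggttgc
Syne1-205: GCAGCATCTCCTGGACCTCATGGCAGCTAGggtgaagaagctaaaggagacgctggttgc

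In Sun2, the leading transcripts Sun2-201 and Sun2-203 differ by 6 coding bases at the start of an exon. The stretch joins chr15:79737066-79737086 to chr15:79735899-79735925 in Sun2-201 and to chr15:79735899-79735919 in Sun2-203. The capitals mark the bases absent from Sun2-203.
Sun2-201: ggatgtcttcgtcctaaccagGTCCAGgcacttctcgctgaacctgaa
Sun2-203: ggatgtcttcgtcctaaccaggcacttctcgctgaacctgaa

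All 10 genes were detected, that is, had at least 1 TPM in both libraries. TPM is a transcript level per length, scaled to the same sum in each library, so it can be compared between genes. The levels ran from 47.7 TPM for Lmna to 1.43 TPM for Lmnb2, with a median of 14.9 TPM, beside a median of 8.43 TPM over the 12024 genes detected. The authors deposited 2 quantifications of the same reads, and values below are from the first unless the second is named. Errors are SDs over n = 2 libraries. In whole heart, fewer cells of a type and less RNA per cell cannot be told apart.

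Lmna, the gene of lamins A and C (chr3:88480147-88509956), had the highest level of the 10. It stood at 48.5 TPM in replicate 1 and 47.0 TPM in replicate 2, from 3485 and 3251 expected counts. Lmna lay above 89.4% of the detected genes, and the libraries differed little. The B-type lamin genes were low in both libraries. Lmnb1 (chr18:56707813-56753424) stood at 2.35 and 2.90 TPM from 176 and 224 counts, and Lmnb2 (chr10:80901203-80918245) at 1.56 and 1.30 TPM from 168 and 132 counts. Of the detected genes, 16.6% lay below Lmnb1 and 3.8% below Lmnb2. The A-type gene therefore held 92.5% of the summed lamin TPM in replicate 1 and 91.8% in replicate 2 (92.2% ± 0.525). Among B-type lamins, Lmnb1 held 60.1% and 69.0% (64.6% ± 6.33), a share with a wide spread that rests on low counts.

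**Figure D1:**
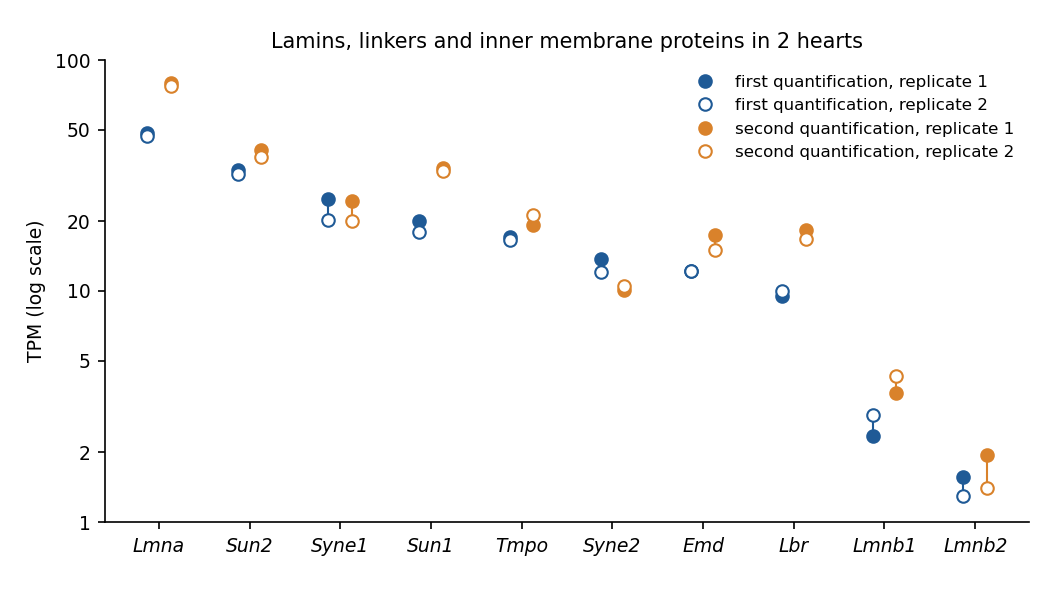
Level of each gene in TPM on a log scale, with filled points for replicate 1 and open points for replicate 2, blue for the first and orange for the second quantification. Lmna is highest and Lmnb1 and Lmnb2 are lowest in both quantifications, while Sun1 moves from 19.1 to 33.6 TPM and Lbr from 9.79 to 17.6 TPM between them.

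Within Lmna, more transcript abundance was assigned to lamin C than to lamin A. Lmna-203, the leading lamin C transcript, had 28.3 and 30.8 TPM. Lmna-201, the lamin A transcript, had 16.0 and 13.7 TPM. The authors' deposited intervals for the 2 transcripts did not overlap in either library, at 24.9 to 30.03 and 27.3 to 32.5 TPM for Lmna-203 against 13.7 to 16.9 and 11.7 to 14.5 TPM for Lmna-201. As a share of lamin A and C transcripts, lamin A took 34.5% in replicate 1 and 30.03% in replicate 2 (32.2% ± 3.13). The second quantification gave 33.3% and 29.0% (31.1% ± 3.09), so both placed lamin A below lamin C, and lower in replicate 2 than in replicate 1. By expected counts, which grow with transcript length, lamin A took 43.4% ± 3.67.

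Lmna-202 shares the lamin C stop codon but starts its coding sequence elsewhere, with 20 coding bases of its own. It had 2.22 and 1.20 TPM in the first quantification and 12.2 and 13.4 TPM in the second. Of the lamin C transcripts it thus took 5.52% ± 2.50 by the first table and 35.6% ± 0.704 by the second. The level of this form was not settled by these tables. The split of lamin A from lamin C moved by less than its spread between libraries, but it counts Lmna-202 as lamin C. Lmna-203 alone had 28.3 and 30.8 TPM in the first quantification and 22.6 and 23.7 TPM in the second. Lmna-201 had 16.0 and 13.7 TPM against 17.4 and 15.1 TPM. Set against Lmna-203 alone, lamin A was thus relatively higher in the second quantification, though still below it.

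The transcripts of the B-type lamins were also divided unevenly by the quantifications. Lmnb2-201 has 57 more bases annotated as coding than Lmnb2-204, but no coding exon that Lmnb2-204 lacks. Both have 12 exons and begin at chr10:80918245, and they end at chr10:80901203 and chr10:80901364. Their shares are therefore not read here as use of the 57 bases. Lmnb2-201 held 97.3% ± 3.81 of Lmnb2 TPM in the first quantification and was listed at 0 in the second. There Lmnb2-204 held 94.8% ± 7.38. In the first quantification, the authors' deposited intervals of both transcripts in replicate 1 overlapped, at 0.595 to 1.64 TPM for Lmnb2-201 and up to 0.930 TPM for Lmnb2-204. Lmnb1-201, the only coding transcript of Lmnb1, held 87.0% ± 5.15 in the first table and 62.0% ± 8.59 in the second. The rest of Lmnb1 went to Lmnb1-202, a retained-intron transcript of 659 bases. From 6.79 and 4.60 counts in the first table and 16.9 and 14.1 in the second, its level was 0.39 and 0.27 TPM against 1.59 and 1.36 TPM.

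Of the SUN genes, whose proteins form the inner side of the LINC complex, Sun2 stood above Sun1 in every library and quantification. Sun2 (chr15:79724070-79742536) had 33.5 and 32.1 TPM from 3721 and 3416 counts. Sun1 (chr5:139200637-139249840) had 20.15 and 18.1 TPM from 1578 and 1388 counts. Sun2 held 62.4% and 64.0% of the summed SUN TPM (63.2% ± 1.09). In the second quantification Sun2 had 40.6 and 37.9 TPM and Sun1 33.99 and 33.15 TPM, and the Sun2 share was 53.9% ± 0.780. The order was the same in both, and the margin was not.

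Sun2 was made up mainly of the 2 transcripts shown above that differ by 6 bases. Sun2-201 had 16.6 and 15.9 TPM and Sun2-203 had 12.9 and 11.8 TPM. Of the 3 complete coding Sun2 transcripts, Sun2-201 took 53.3% ± 0.723, and 57.5% ± 1.02 in the second quantification. Both forms were thus present at like levels in both hearts. Their authors' deposited intervals in replicate 1 overlapped, at 13.2 to 18.9 TPM for Sun2-201 and 9.50 to 15.2 TPM for Sun2-203.

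Sun1 transcripts differ by coding exons that are kept or skipped in the middle of the gene. The longest form, Sun1-201, carries 369 coding bases in 3 exons that Sun1-205 lacks. Sun1-205 led in the first quantification, with 6.12 and 5.63 TPM, and Sun1-201 had 3.67 and 3.53 TPM. The second gave 6.40 and 5.61 TPM for Sun1-205 and 3.60 and 3.57 TPM for Sun1-201, so these 2 full-length forms were close in both tables. Sun1-202 and Sun1-206, also full-length, were lower and moved more, from 1.94 and 1.82 to 3.03 and 2.63 TPM and from 0.86 and 0.44 to 1.12 and 1.02 TPM. Of 5 Sun1 transcripts with the same stop codon, Sun1-205 took 49.0% ± 0.488 in the first table and 44.5% ± 1.06 in the second.

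Most of the higher Sun1 level of the second quantification lay in short transcripts. Sun1-212, a coding fragment of 566 bases, had 0.44 TPM in each library of the first table and 7.23 and 12.8 TPM in the second. Sun1-219, of 641 bases, was listed at 0 TPM in both libraries of the first table and had 5.99 and 1.94 TPM in the second. Sun1-217 and Sun1-211, of 621 and 774 bases, went the other way or stayed close, with 2.89 and 2.25 TPM against 1.05 and 0.315 TPM, and 2.63 and 2.35 TPM against 2.92 and 2.30 TPM. Only Sun1-211 of these 4 fragments was close in both tables.

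Nesprins, the outer side of the LINC complex, come from some of the longest genes in the genome. Syne1 (chr10:5020917-5551482) had 24.99 and 20.26 TPM, and Syne2 (chr12:75818134-76110926), the gene of nesprin-2, had 13.7 and 12.0 TPM. Syne1 collected the most reads of the 10 genes, at 8143 and 6965 counts, although it was the third by TPM. Syne2 had 3430 and 3062 counts. Syne1 held 64.6% and 62.7% of nesprin TPM (63.7% ± 1.31), and 68.3% ± 3.65 in the second quantification. Over complete coding transcripts alone, Syne1 held 83.4% ± 1.52, but that set is unlike for the 2 genes. It keeps the short Syne1-202 beside the giant Syne1-205. Of Syne2 it keeps only giant transcripts, since the shorter coding ones lack an annotated start or end. The giant Syne1-205 had 7.12 and 6.53 TPM, and the giant Syne2-210 had 4.00 and 3.75 TPM.

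The short and the giant nesprin-1 were both present. Giant nesprin-1 carries the actin-binding domain at its start, and short forms with the same end, which sits in the nuclear membrane, are known from striated muscle. Syne1-202, the short transcript of 3443 bases, had 14.6 and 10.9 TPM. Syne1-205, the giant transcript of 27908 bases and 145 coding exons, had 7.12 and 6.53 TPM. The short transcript shares 96.8% of its coding bases with the giant one. Their deposited intervals did not overlap in either library, at 13.5 to 15.1 and 9.91 to 11.4 TPM for the short and 6.78 to 7.16 and 6.21 to 6.58 TPM for the giant form. The short form was the more abundant in both hearts.

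Of both Syne1 forms together, the short one took 67.2% in replicate 1 and 62.5% in replicate 2 (64.8% ± 3.33). The second quantification gave 61.2% and 54.9% (58.0% ± 4.47), with the same direction between the libraries. By expected counts the short form took 18.2% ± 2.18, since most reads fall on the longer transcript. The sign of the comparison between the forms thus holds per transcript and turns over per read. Syne1-206, a coding fragment of 3894 bases, had a further 2.64 and 2.35 TPM.

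Syne2 was divided over many transcripts by TPM and was mostly the giant transcript by reads. Syne2-210, the giant transcript of 21704 bases and 114 coding exons, had 4.00 and 3.75 TPM, which was 30.2% ± 1.36 of the gene, and 45.1% ± 3.24 in the second quantification. In the first table it nevertheless held 79.2% and 80.5% of the gene's expected counts. Syne2-206, annotated as a target of nonsense-mediated decay, had 2.62 and 2.47 TPM, and 1.42 and 1.49 TPM in the second quantification. Syne2-209, of 440 bases, had 1.83 and 1.32 TPM in the first and was listed at 0 in the second, while Syne2-211, of 639 bases, was listed at 0 in the first and had 2.09 and 2.20 TPM in the second. Syne2-213 had 1.38 and 1.67 TPM and Syne2-212 had 1.54 and 1.24 TPM. The giant transcript had 4.79 and 4.50 TPM in the second quantification, above its deposited intervals in the first, at 3.25 to 4.05 and 2.71 to 3.74 TPM.

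**Figure D2:**
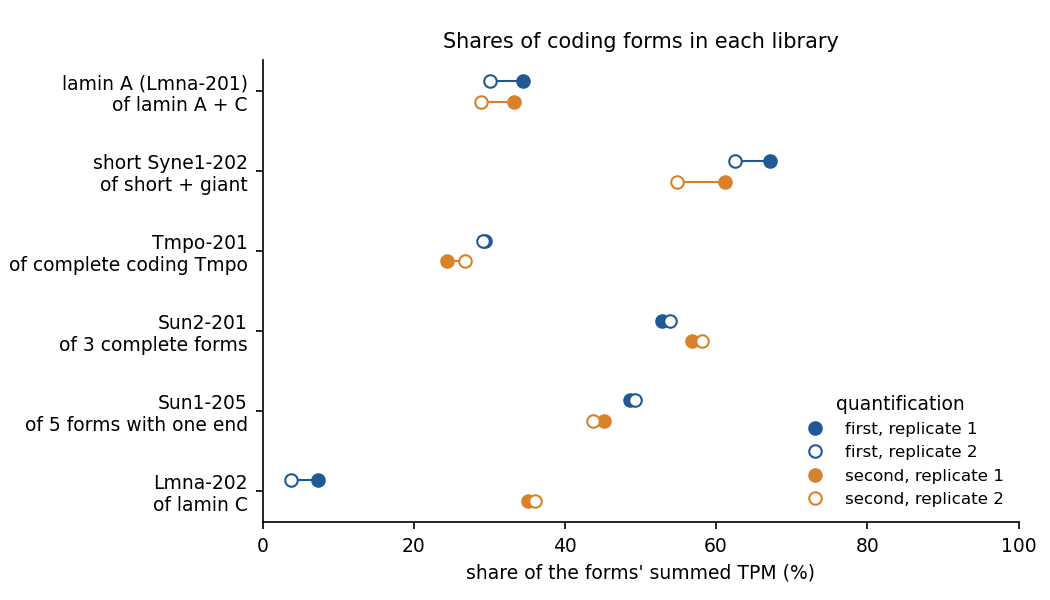
Share of each named coding form in percent of the summed TPM of the forms it is set against, with filled points for replicate 1 and open points for replicate 2, blue for the first and orange for the second quantification. Lamin A lies near 30% in both, the short Syne1 transcript lies above 50% in both, and Lmna-202 moves from 5.52% to 35.6% of lamin C between the quantifications.

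The inner membrane genes lay in the middle of the range. Tmpo (chr10:91147571-91181315) had 17.2 and 16.7 TPM from 1350 and 1342 counts. Emd, the gene of emerin (chrX:74254687-74261548), had 12.21 and 12.25 TPM from 574 and 544 counts. Lbr, the gene of the lamin B receptor (chr1:181815335-181843046), had 9.56 and 10.02 TPM from 812 and 784 counts. Of the detected genes, 70.3% lay below Tmpo, 61.7% below Emd and 54.8% below Lbr. Emd lies on the X chromosome, of which female cells silence one copy, and these tables do not separate the alleles.

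Tmpo transcripts were split between several LAP2 forms. LAP2 alpha (Tmpo-201), which has no membrane span and is known to bind A-type lamins inside the nucleus, had 3.66 and 4.03 TPM. Tmpo-202, the longest of the forms with the membrane-bound end, led the gene with 4.93 and 4.41 TPM. Tmpo-203, which lacks 120 coding bases of Tmpo-202 in 1 exon, had 2.00 and 3.30 TPM. LAP2 alpha took 29.4% and 29.1% of the complete coding Tmpo transcripts (29.3% ± 0.166), and 24.4% and 26.8% (25.6% ± 1.67) in the second quantification. In both, the larger share went to the forms with the membrane-bound end.

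Emd and Lbr were each led by 1 full-length transcript. Emd-201 had 12.2 and 11.7 TPM, and 12.0 and 13.4 TPM in the second quantification. Emd-206, annotated as a target of nonsense-mediated decay, was listed at 0 in the first table and had 5.25 and 0.796 TPM in the second. Lbr-201 had 7.08 and 7.26 TPM, and 7.75 and 7.76 TPM in the second quantification. Lbr-205, a fragment of 648 bases whose coding sequence has no annotated end, had 1.93 and 0.74 TPM in the first and 8.12 and 6.83 TPM in the second. Lbr-208, of 384 bases, had 0.35 and 1.90 TPM in the first and was listed at 0 in the second. Emd-201 and Lbr-201 led their genes by mean TPM in both tables.

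In order of mean TPM the genes ran Lmna, Sun2, Syne1, Sun1, Tmpo, Syne2, Emd, Lbr, Lmnb1 and Lmnb2. Of the 9 neighbouring pairs in this order, only Syne2 and Emd had overlapping values over the libraries. In the second quantification the order was Lmna, Sun2, Sun1, Syne1, Tmpo, Lbr, Emd, Syne2, Lmnb1 and Lmnb2, and the overlapping neighbours were Syne1 with Tmpo and Lbr with Emd. The first 2 and the last 2 places were the same in both orders. The middle of the order depended on the quantification.

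The tables were close in reads per gene and differed in level. The second quantification gave each gene 1.02 to 1.11 times the counts of the first, but 0.801 times (Syne2) to 1.80 times (Lbr) the TPM. The ratio was 1.64 for Lmna, 1.76 for Sun1 and 1.499 for Lmnb1. The programs also used different effective lengths. The median number of bases taken off for effective length was 99 in the first and 329 in the second table, over the 52 transcripts of these genes longer than 1000 bases, so the same reads give a short transcript more TPM in the second. The reads of single transcripts also differed. Lmna-206 had 12.9 and 0 counts by the first table against 359 and 340 by the second, and Sun1-212 had 6.50 and 6.23 against 55.5 and 96.2.

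When the transcripts were divided by annotation, the difference between the tables lay mostly outside the complete coding ones for Lmna, Sun1, Lbr, Emd and Lmnb1. It lay mostly within them for Tmpo and Sun2. Syne2 was higher in the second table over complete coding transcripts, at 3.88 against 4.65 TPM, but lower as a whole gene, at 12.9 against 10.3 TPM. The 96 transcripts comprise 31 complete coding transcripts with a median length of 3370 bases, 27 coding transcripts with a missing start or stop and a median of 641 bases, and 38 others that are not annotated as protein-coding. Of these 38, 4 are annotated as targets of nonsense-mediated decay and hold a coding sequence, Syne2-206 among them. This division was chosen after the values were seen. Over the complete coding transcripts, the second table gave between 0.935 times (Syne1) and 1.25 times (Tmpo) the TPM of the first. Lmna then stood at 46.1 TPM in the first and 52.2 TPM in the second, against 47.7 and 78.2 TPM for the whole gene. Transcripts with a missing end held 30.9% ± 0.128 of Lmna in the second table and 0.619% ± 0.876 in the first. That share of Lmna was 1 transcript, Lmna-206, a fragment of 785 bases with 1 coding exon, at 24.5 and 23.8 TPM in the second and 0.6 and 0 TPM in the first. Tmpo stood at 13.1 and 16.5 TPM over complete coding transcripts, against 16.9 and 20.3 TPM for the whole gene. Sun2 stood at 30.5 and 34.4 TPM, against 32.8 and 39.2 TPM. For Lbr, transcripts with a missing end held 54.7% ± 0.972 against 25.1% ± 1.77, and for Sun1 53.8% ± 1.07 against 30.2% ± 2.13. For Emd and Lmnb1 the difference lay mostly in transcripts not annotated as protein-coding. For Emd these had 0.15 ± 0.212 TPM in the first and 3.24 ± 2.84 TPM in the second table. For Lmnb1 they had 0.33 ± 0.0849 and 1.47 ± 0.158 TPM.

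**Figure D3:**
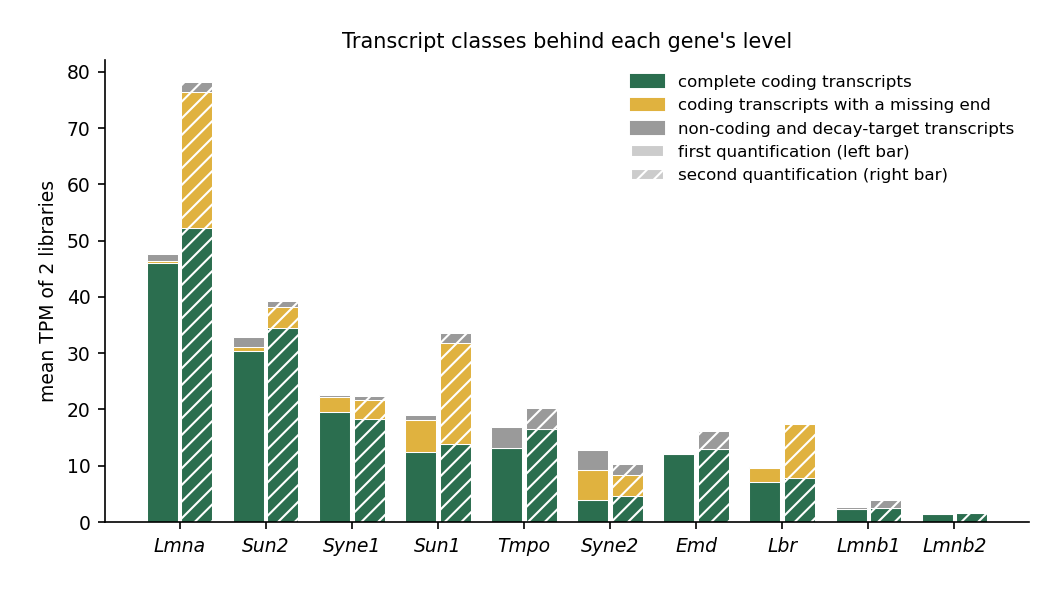
Mean TPM of each gene over 2 libraries, divided into complete coding transcripts (green), coding transcripts with a missing end (yellow) and non-coding transcripts with targets of nonsense-mediated decay (grey), with the first quantification as the plain left bar and the second as the hatched right bar. The green parts stand at 46.1 and 52.2 TPM for Lmna, and the yellow parts differ most for Lmna, Sun1 and Lbr.

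Counted by complete coding transcripts, Syne2 came behind Lbr in the order. Tmpo, at 12.5 and 13.8 TPM, and Sun1, at 12.98 and 11.85 TPM, overlapped. Syne2, of which only giant transcripts are complete, stood at 3.88 ± 0.177 TPM, against 12.9 ± 1.18 TPM for the whole gene. Sun2 stood at 30.5 TPM, Syne1 at 19.6, Tmpo at 13.1, Sun1 at 12.4, Emd at 12.1 and Lbr at 7.17. Lmnb1 had 2.30 ± 0.474 TPM and Lmnb2 1.43 ± 0.184 TPM. The leading transcript was the same in both quantifications for 7 of 10 genes, and differed for Lmna, Lmnb2 and Sun1. In either library alone it was the same for 6, since in the second table Lbr-205 led Lbr in replicate 1 and Tmpo-203 led Tmpo in replicate 2, at 8.12 and 4.99 TPM. By the first quantification, Lmna-203 held 61.9% ± 5.11 of Lmna, while the second put Lmna-206 first at 30.9% ± 0.128. Genes that overlap these 10 loci had few reads, the most being Gm10097, opposite to Syne1, with 14 and 13 counts.

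Between the libraries, none of the 10 genes was called at a 2-fold difference, beside 210 of 13745 genes tested, which is 1.53%. The test was an exact two-sided binomial test on counts with Benjamini-Hochberg adjustment over those genes, and it compares the reads of 2 libraries. With 1 group, it covers counting error only and says nothing of conditions. At any fold, 2 of the 10 genes passed at an adjusted p under 0.05, and the same 2 had an unadjusted p under 0.05. Of all genes tested, 21.9% passed in this way, so the count for the 10 genes is near the background.

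The gene that passed as higher in replicate 2 was Lmnb1, by 0.45 on the log2 scale (95% interval 0.16 to 0.74, adjusted p = 0.0119 in the exact binomial test), a ratio of 1.37. The gene that passed as lower in replicate 2 was Syne1, with a log2 ratio of -0.12 (95% interval -0.17 to -0.076, adjusted p = 2.94e-06 in the same test), a ratio of 0.919. The large count of Syne1 makes a small difference pass, whereas Lmnb1 rests on 176 and 224 counts. Scaled to the ERCC spike-ins instead, Syne1 was higher in replicate 2, with a log2 ratio of 0.12 (adjusted p = 1.74e-06 in the exact binomial test), on a scale that puts the median of all genes at 0.24. A change of scaling moves the log2 ratios of all genes by the same amount. The place of Syne1 below the median of all genes is thus the same on both scales and is no separate result.

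The other 8 genes did not pass. Lmna had a log2 ratio of 0.0026 with a 95% interval of -0.067 to 0.072, which has 0 near its centre. Sun2 had -0.021 (-0.088 to 0.047) and Syne2 -0.061 (-0.13 to 0.0098). Sun1 had -0.082 (-0.19 to 0.023). Of the inner membrane genes, Tmpo had 0.094 (-0.016 to 0.20), Lbr 0.052 (-0.091 to 0.20) and Emd 0.025 (-0.15 to 0.20). Lmnb2, the lowest, had the widest interval, at -0.24 (-0.59 to 0.092). All 10 genes had a median log2 ratio of -0.0090 and a median absolute ratio of 0.072, beside 0.00047 and 0.13 over all genes tested. Likeness of a pattern across samples was not computed, because there are 2 libraries.

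**Figure D4:**
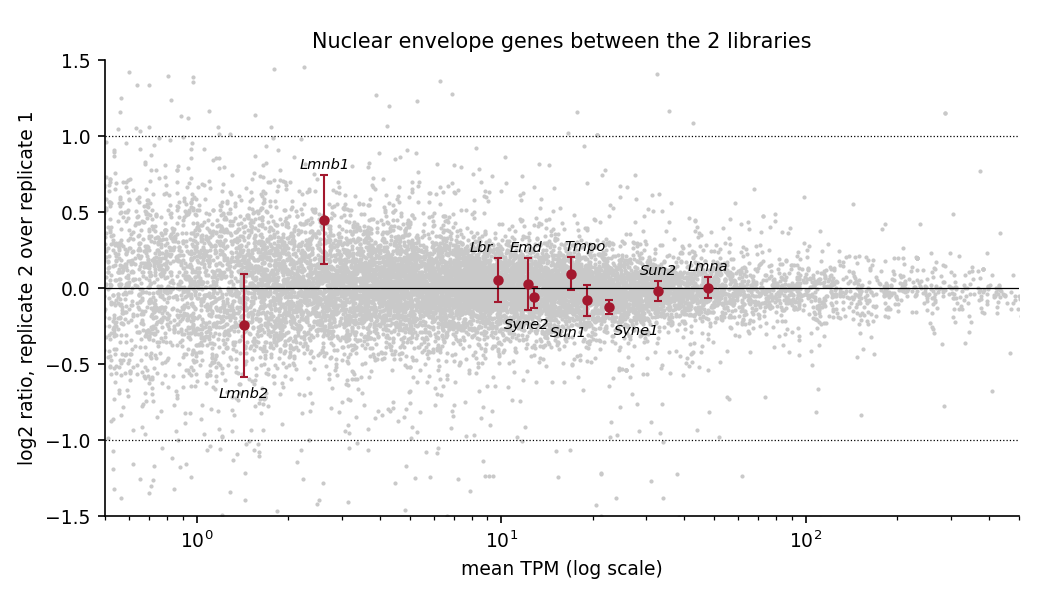
Log2 ratio of replicate 2 over replicate 1 against mean TPM on a log scale, for the 10 genes in red with 95% counting intervals and for all 13745 genes tested in grey, of which 818 lie outside the plotted range. The dotted lines mark 2-fold differences, and all 10 genes lie between them, with Lmnb1 above 0 and Syne1 below 0 by more than their intervals.

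The hearts differed in blood and fat markers. The 6 erythroid markers were all called lower in replicate 2, with a summed level of 36363 TPM in replicate 1 and 11883 TPM in replicate 2. Of 5 adipocyte markers, 3 were called lower, with sums of 120 and 38.0 TPM. The 6 cardiomyocyte markers were all detected, at sums of 28210 and 27957 TPM. All endothelial, fibroblast, smooth muscle and macrophage markers were detected too, and none of these or of the cardiomyocyte markers was called at 2-fold. At any fold all 6 cardiomyocyte markers passed, 4 as higher and 2 as lower in replicate 2. Their log2 ratios ran from -0.13 for Actc1 to 0.17 for Myh6. Of all genes tested, 21.9% passed at any fold. T and B cell and lung markers were all below 1 TPM in at least 1 library. Beside the Lmnb1 difference, the 6 markers of proliferating cells summed to 5.92 and 4.96 TPM with none called. Beside the Syne1 difference, the 5 endothelial markers summed to 217.5 and 187.6 TPM. Of these, 3 passed as lower at any fold, while Kdr and Tek did not pass, at log2 ratios of 0.014 and 0.054. Other lists had lower sums too, each with 2 passing as lower. These were 225 and 204 TPM for smooth muscle and pericyte and 2088 and 1738 TPM for skeletal muscle markers. The latter sum was almost wholly Ckm, at 1576 and 1429 TPM, and Acta1, at 511 and 308 TPM, the 2 that passed. Myh4 was listed at 0, Myh1 had 0.01 TPM in each library, and Tnni2 had 1.14 and 0.57 TPM. The sum is therefore not read as an amount of skeletal muscle. Fibroblast markers summed to 267 and 270 TPM, with 2 passing as higher and 1 as lower. Macrophage markers summed to 88.05 and 87.96 TPM, with 1 passing as higher. The part of these cell types in the 2 differences was not tested.

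Other genes of the nuclear envelope, 77 in 8 lists, were measured beside the 10. Of these, 66 were detected, with a median of 7.64 TPM over the lists, and none was called at 2-fold. At any fold, 10 were higher and 7 lower in replicate 2 of 69 tested, a share near the 21.9% of all genes. Those named below by this criterion, and those named as undetected, were chosen after their values were seen. The gene lists too were drawn up with earlier results known.

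The other genes of the LINC complex were low. Of 7 further KASH and SUN genes, only Syne3, the gene of nesprin-3, was detected, at 2.76 and 2.82 TPM, and Ccdc155, the gene of a meiotic KASH protein, and Sun5 were listed at 0. Sun3 had 0.64 and 1.10 TPM, Lrmp 0.77 and 0.53, Syne4 0.36 and 0.46, and Spag4 0.30 and 0.53. All 7 together summed to 4.83 and 5.44 TPM, below the level of Sun1 alone. Of 7 further LEM and BAF genes, 4 were detected. Banf1, the gene of BAF to which emerin and LAP2 bind, led at 49.2 and 45.5 TPM. Lemd2, Ankle2 and Lemd3 had 10.6, 10.6 and 4.80 TPM on average, while Lemd1, Ankle1 and Banf2 had under 1 TPM.

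Enzymes that process prelamin A were all 5 detected. Fnta, a subunit of farnesyltransferase, was highest at 28.6 and 27.2 TPM, and Rce1, a protease of the next step, lowest at 3.14 and 3.39 TPM. Zmpste24, the protease that releases mature lamin A, had 9.08 and 7.82 TPM and was the only one to pass at any fold (log2 ratio -0.25, adjusted p = 0.00274 in the exact binomial test). All 6 genes of torsins, which are ATPases of the space between the membranes, and of their partners were detected. Tor1aip1, the gene of the lamin-binding torsin partner LAP1, led at 30.03 and 31.61 TPM, and Tor2a was lowest at 3.42 and 3.45 TPM. Tor1b and Tor1aip1 passed as higher in replicate 2, at log2 ratios of 0.24 and 0.10.

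Of 9 other genes in a list of inner membrane proteins and LBR partners, 8 were detected. Tmem38a, the gene of a cation channel of the sarcoplasmic reticulum and nuclear membrane, was highest at 187 and 174 TPM. Nrm, the gene of nurim, was lowest at 1.05 and 0.82 TPM, and Plpp7 alone passed, as lower in replicate 2 with a log2 ratio of -0.35. Mlip, whose protein binds A-type lamins in muscle, had 57.8 and 54.9 TPM. Cbx5, the gene of the heterochromatin protein to which LBR binds, had 22.04 and 21.15 TPM.

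All 28 nuclear pore genes found were detected, with a median of 6.13 TPM. Tpr, the gene of the nuclear basket protein, led at 47.9 and 51.2 TPM, and Nup210 was lowest at 1.52 and 1.74 TPM. At any fold Tpr, Nup153, Ranbp2 and Ahctf1 passed as higher and Nup62 and Nup188 as lower in replicate 2, with log2 ratios from -0.31 for Nup62 to 0.33 for Nup153. The cytoskeletal partners of the linkers were much higher, with all 11 detected at a median of 49.5 TPM. Des, the gene of the muscle intermediate filament desmin, led at 520 and 485 TPM, and Fhod1, a formin that binds giant nesprin-2, was lowest at 2.96 and 2.36 TPM. Dst, Dync1h1 and Pcnt passed as higher and Macf1, Fhod1 and Des as lower.

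The 3 genes of the actin-responsive factor SRF and its coactivators were detected, with Srf at 33.9 and 34.1 TPM and Mrtfa lowest at 3.00 and 2.87 TPM. Mrtfb passed as higher in replicate 2 with a log2 ratio of 0.21. Across the lists, the highest medians were those of the cytoskeletal partners and of the 10 genes themselves. Since lists differ in size and were not drawn at random, the medians are descriptions.

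**Figure D5:**
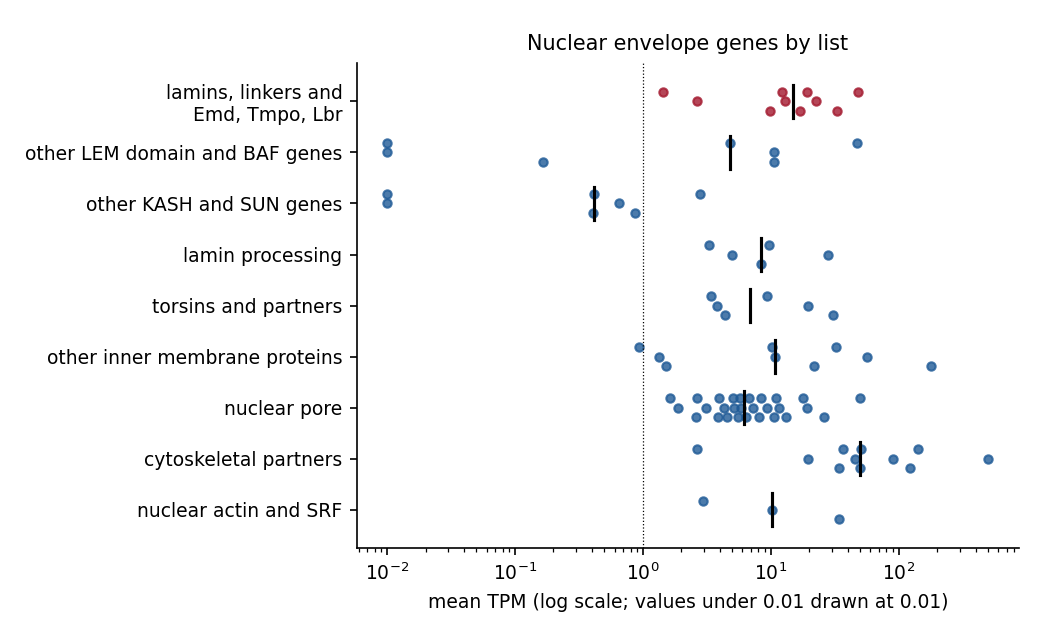
Mean TPM of each gene on a log scale, by list, with the 10 lamin, linker and inner membrane genes in red, the median of each list as a black bar and the detection level of 1 TPM as a dotted line. The other KASH and SUN genes lie mostly below 1 TPM, and the cytoskeletal partners lie highest, at a median of 49.5 TPM.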

How the data were processed

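RNA was extracted from hearts with a Norgen animal tissue kit, per the labels' protocols. The authors quantified the reads against mm10 with GENCODE M21, per the deposited description files. Which programs they used is not given in the sources used here. Deposited as the first quantification are expected counts, TPM, FPKM and intervals per gene and transcript. The second gives the authors' estimated counts and TPM per transcript, which were summed per gene. The FPKM column, deposited by the authors, served only as an alternative for detection. The reference is of C57BL/6J, so reads of the CAST allele carry mismatches, whose effect was not measured. Left out were 26248 rows that carry a number in place of a name and hold 2 and 4 counts.

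Expected counts were rounded and compared with an exact two-sided binomial test against TMM library sizes from edgeR 4.0.16, adjusted by Benjamini-Hochberg over the 13745 genes with 50 or more counts in sum. Calls needed an adjusted p under 0.05 and a ratio of 2-fold or more. For log2 ratios, replicate 2 over 1, each count was raised by 0.5, and they carry exact (Clopper-Pearson) 95% intervals. Intervals cover counting error only, since they are built from the counts of 2 libraries and hold no spread between animals. Reads carry no molecular identifiers, so the counts are of reads and not of molecules. At this depth, 3 counts equal 0.0772 and 0.0786 CPM. Named were all 10 genes, their transcripts with at least 10% of the gene's TPM in either quantification, and the highest, lowest and called gene of each other list. The genes and lists were chosen with earlier results of these data known. The symbol Nup58 was not found. Sequences were read from the GENCODE M21 transcripts. Alternatives were size factors from DESeq2 1.42.0, total and ERCC scaling, the second quantification, posterior mean TPM, transcript classes and single libraries.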

Additional observations from a re-analysis of the deposited data

How the results depend on the processing

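No paired analysis was possible because there is 1 group and no contrast. None of the 10 genes was called at 2-fold under any scaling, filter or quantification tried, and all 10 were detected in each library alone. Of 10 genes, 2 passed at any fold with TMM, DESeq2 and the second quantification, 5 with total mouse counts and 9 with ERCC scaling. Of all 13745 genes, 3869 and 7952 then passed, against 3006, and the median log2 ratio lay at -0.077 and 0.24. Some log2 ratios changed sign. Of these, only that of Syne1, at -0.12, had passed with TMM scaling. Lmna gave -0.015 with DESeq2 size factors, -0.075 with total counts and -0.013 in the second quantification. With total counts Emd gave -0.052 and Lbr -0.025. With ERCC scaling Syne1 gave 0.12, Syne2 0.18, Sun1 0.16 and Sun2 0.22. All lay below the median of all genes on that scale, as with TMM, since scaling moves all genes alike. The share of A-type lamin was 93.3% in the second quantification and 90.6% by counts. The Sun2 share was 53.9% in the second quantification, 70.7% by counts and 71.1% over complete coding transcripts. The Syne1 share of nesprin was 68.3% in the second quantification, 61.7% by posterior mean and 69.9% by counts. It was 70.3% over protein-coding and 83.4% over complete coding transcripts. The complete set holds short and giant Syne1 but only giant Syne2. Lamin A took 43.4% by counts, LAP2 alpha 25.6% in the second quantification and 36.8% by counts, and short Syne1 58.0% and 18.2%. The cause of these shifts was not tested, except that counts grow with transcript length. In single libraries the shares ranged from 91.8 to 92.5% for A-type lamin, 62.4 to 64.0% for Sun2, 62.7 to 64.6% for Syne1, 30.03 to 34.5% for lamin A, 29.1 to 29.4% for LAP2 alpha and 62.5 to 67.2% for short Syne1. Depth limits Lmnb1 and Lmnb2 most.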
